A study of Mus musculus with 48 samples.

Results

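Described here are 7 genes of the stress axis, Crh, Crhbp, Crhr1, Crhr2, Nr3c1, Nr3c2 and Hsd11b1, in the mouse hypothalamus. They were chosen by name, without a rule on measured values, though with earlier results of these data known. They are 7 of the 21558 genes with deposited RPKM (read counts scaled to transcript length and to the mapped reads of the library). All 7 passed the filter of a mean of at least 0.5 RPKM that left 13685 genes for testing. The study sequenced 48 libraries of hypothalamus RNA, each pooled from 3 male C57BL/6 mice (144 mice in all, C57BL/6N in the design text). Every mouse was either moving freely or in hind limb unloading, a posture used on the ground to model weightlessness. The early period (age 2 months in the labels) holds 4 series of 6 libraries, all at 10 dBA and normal air pressure. A pair of these series is free-moving and a pair unloaded, and since the series of a pair carry the same labels they are called a and b. The late period (3 months) holds 4 series of 6 libraries. In 2 of them, 1 free-moving and 1 unloaded, the surroundings were again at 10 dBA and normal pressure, and these are named quiet. In the other two, also 1 free-moving and 1 unloaded, mice lived with 85 dBA at 0.9 atm, and these are named noise. No genotype or drug treatment is given for any group. The louder rooms were also those at 0.9 atm, and the late mice were also the older ones, so sound cannot be told apart from pressure, nor period from age. Each late condition is 1 series, so a condition cannot be told apart from its series either. The design text gives an age of 2 months for all mice, against 3 months in the labels of the late series. The 6 libraries of a series are numbered 1, 5, 9, 13, 17 and 21 in their titles. Nothing in the labels says that the pools of a series were kept separately, so the p-values measure the spread between these pooled libraries.

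Corticotropin-releasing hormone, the product of Crh, is made by parvocellular neurons of the paraventricular nucleus and by other hypothalamic neurons, and starts the hormone cascade that ends in adrenal corticosteroid release. It acts through the G protein-coupled receptors encoded by Crhr1 and Crhr2, while the binding protein encoded by Crhbp takes up free peptide. Corticosteroids feed back on the brain through the glucocorticoid receptor, encoded by Nr3c1, and the mineralocorticoid receptor of higher affinity, encoded by Nr3c2. The enzyme encoded by Hsd11b1 regenerates active corticosteroid inside cells.

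Depth, recovered from the steps between low RPKM values, was 28.3 to 55.3 M reads per library (median 38.1 M), and came to an estimated 211 to 742 reads for Crh, 98 to 650 for Crhbp and 298 to 1026 for Crhr1. The 13 mitochondrially encoded mRNAs took very different shares of the RPKM of the series. In the late quiet mice the share was 11.5% ± 1.68 (SD, n = 6) free-moving and 14.03% ± 1.32 unloaded. In the noise series it was 28.3% ± 8.55 free-moving and 33.6% ± 17.3 unloaded. In the early series it was 41.8% ± 16.3 and 44.5% ± 7.36 free-moving and 20.5% ± 13.8 and 34.3% ± 8.80 unloaded. Hypothalamic markers were present in every library, with summed levels of 340 to 1056 RPKM over 12 genes, among them Hcrt (140 to 440 RPKM) and Pmch (40.5 to 485 RPKM). Kiss1 was at or near 0, and Sim1, a transcription factor of the paraventricular nucleus where many Crh neurons lie, was at 0.134 to 1.55 RPKM. Library 9 of early unloaded series a held 12140 RPKM of anterior pituitary genes (8 measured), against 2.44 to 31.6 RPKM in the other 47 libraries. Values for the early series are therefore also given without it where that changes a call.

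Positions are those of GRCm38 (GENCODE M21). Crh (ENSMUSG00000049796.4) is at chr3:19693401-19695396 on the minus strand, and Crhbp (ENSMUSG00000021680.8) at chr13:95431371-95444924, also minus. Crhr1 (ENSMUSG00000018634.10) is at chr11:104132855-104175523 on the plus strand and Crhr2 (ENSMUSG00000003476.16) at chr6:55090049-55133016 on the minus strand. Nr3c2 (ENSMUSG00000031618.13) at chr8:76899442-77245012 on the plus strand and Hsd11b1 (ENSMUSG00000016194.14) at chr1:193221634-193264075 on the minus strand. Nr3c1 is ENSMUSG00000024431.15. All 7 are protein-coding. RefSeq start sites (GRCm38.p6) were matched for 5 of the 7, Crhbp, Crhr1, Crhr2, Nr3c2 and Hsd11b1, and not for Crh and Nr3c1.

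The 250 bases before the RefSeq start are shown for Nr3c2, Hsd11b1 and Crhbp, which were called lower in unloaded mice kept in noise. Nr3c1, also called lower there, has no matched start. In that comparison 52.3% of all genes were called, so the shared fall is not read as particular to these genes. Capitals mark GGGCGG (a GC box) or TGACG (the core of a cAMP response element) on either strand, and each sequence is written 5′ to 3′ along its gene. The window of Nr3c2 is chr8:76902080-76902329 (plus strand), that of Hsd11b1 chr1:193242361-193242610 (minus strand) and that of Crhbp chr13:95444832-95445081 (minus strand). The Nr3c2 and Hsd11b1 windows lie inside the GENCODE gene bounds and the Crhbp window partly so, since GENCODE lists transcripts that start further upstream. The marked bases of Crhbp are in the part inside these bounds.
Nr3c2: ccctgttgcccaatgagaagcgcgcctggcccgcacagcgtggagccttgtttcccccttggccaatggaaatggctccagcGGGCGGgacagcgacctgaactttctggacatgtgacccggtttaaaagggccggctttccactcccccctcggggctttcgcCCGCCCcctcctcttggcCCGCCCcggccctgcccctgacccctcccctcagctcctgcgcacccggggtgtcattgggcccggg
Hsd11b1: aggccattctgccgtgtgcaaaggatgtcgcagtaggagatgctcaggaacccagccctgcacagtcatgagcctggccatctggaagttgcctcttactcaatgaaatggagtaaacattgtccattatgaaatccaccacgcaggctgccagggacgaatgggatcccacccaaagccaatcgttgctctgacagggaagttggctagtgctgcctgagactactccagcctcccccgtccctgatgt
Crhbp: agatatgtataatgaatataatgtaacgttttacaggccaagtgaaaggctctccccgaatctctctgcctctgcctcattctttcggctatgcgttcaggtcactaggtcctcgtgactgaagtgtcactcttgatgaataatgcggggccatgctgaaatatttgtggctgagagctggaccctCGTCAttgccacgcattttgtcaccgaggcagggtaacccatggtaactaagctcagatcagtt
Over the window from 250 bases before to 50 after the start, Nr3c2 held 3 matches to GGGCGG, which 35.7% of 32851 RefSeq promoter windows hold at least once. Crhbp held 1 match to TGACG (20.8% of windows), at 64 bases before the start, and a TATAAA 30 bases after it (13.6% of windows). Hsd11b1 had no match to these motifs. None of the 3 windows held TGACGTCA (1.79% of windows), AGAACA (19.0%), the palindrome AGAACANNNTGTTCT (3 windows in all) or CACGTG (7.15%). All motifs were searched on both strands, TGACG lies within TGACGTCA and AGAACA within the palindrome, and a match is a description of letters only. Outside the printed sequences, Crhr1 held 1 GGGCGG and Crhr2 1 TATAAA.

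Across the 8 series, the receptors for corticosteroids and the regenerating enzyme were highest in the late quiet series, whereas Crh was lowest in the late quiet free-moving one. Nr3c1 was 11.1 ± 0.826 RPKM (SD, n = 6) in late quiet free-moving mice, with a lowest library of 10.2, a median of 10.98 and a highest of 12.1 RPKM. It was 7.77 ± 0.645 RPKM in late quiet unloaded mice (lowest 6.96, median 7.75, highest 8.65). In the other 6 series its means lay between 3.34 and 5.61 RPKM. No library outside the late quiet free-moving series reached 10.2 RPKM of Nr3c1, while the late quiet unloaded series overlapped single libraries of early free-moving series a (up to 7.09), of early unloaded series a (up to 7.98) and of the noise free-moving series (up to 8.20). RNA of bulk tissue cannot separate fewer cells expressing a gene from less RNA per cell.

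Nr3c2 had the same leading pair of series. Its level was 4.51 ± 0.117 RPKM in late quiet free-moving mice (lowest 4.31, median 4.51, highest 4.65) and 3.75 ± 0.0998 RPKM in late quiet unloaded mice (3.59, 3.76 and 3.86). These ranges did not overlap. The other series had means from 2.29 RPKM in early free-moving series a to 3.03 RPKM in early unloaded series a, and each overlapped its neighbour in the order. Hsd11b1 was 5.61 ± 1.47 RPKM in late quiet free-moving mice (lowest 3.78, median 5.24, highest 7.80) and 5.03 ± 1.25 RPKM in late quiet unloaded mice (3.07, 5.56 and 6.05). Its 6 other means were within 3.15 to 3.63 RPKM, and every neighbouring pair of series overlapped.

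Crh was spread differently over the series. Its highest mean was 9.09 ± 2.58 RPKM in early unloaded series a (lowest 6.07, median 9.09, highest 13.4), followed by 7.90 ± 1.55 RPKM in late quiet unloaded mice (5.95, 7.71 and 9.81). The lowest means were 5.35 ± 1.03 RPKM in early free-moving series b (4.03, 5.54 and 6.71) and 5.26 ± 0.832 RPKM in late quiet free-moving mice (4.44, 4.94 and 6.35). The remaining means were 7.73 ± 2.61 in early free-moving series a, 7.67 ± 1.87 in early unloaded series b, 7.49 ± 1.40 in noise unloaded and 6.64 ± 1.11 RPKM in noise free-moving mice. Each series overlapped the next in this order. Crhbp ran from 3.12 ± 0.519 RPKM in early free-moving series b (2.36, 3.08 and 3.75) to 5.53 ± 0.815 RPKM in late quiet free-moving mice (4.57, 5.65 and 6.48). The series at the ends of the Crhbp order did not overlap each other, while all neighbours did.

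The peptide receptors varied least. Crhr1 means were 4.94 RPKM in early free-moving series b to 6.69 RPKM in early unloaded series a, the latter with 1 library, number 17, at 10.9 RPKM and the others at 4.75 to 6.81. Crhr2 means were 1.69 RPKM in noise unloaded mice to 2.14 RPKM in early unloaded series a, with single libraries from 1.20 to 2.61 RPKM. Every pair of neighbouring series overlapped for both receptors. On this per-length scale Crhr1 stood above Crhr2 in all 8 series, with mean ratios of 2.48 to 3.28.

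**Figure D1:**
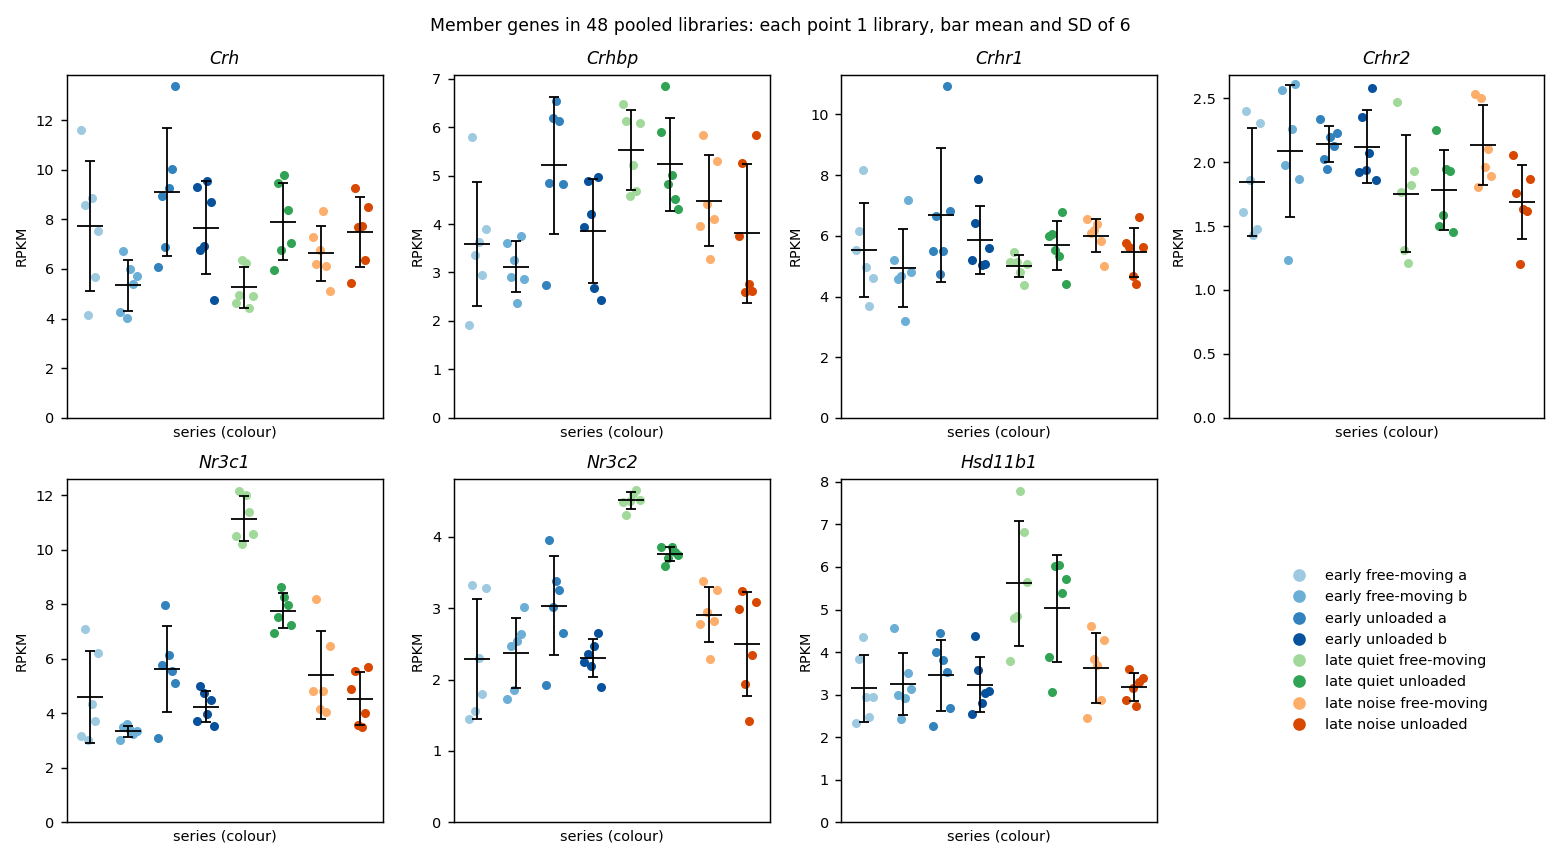
RPKM of the 7 genes (vertical axes) in the 8 series (colours), with 1 point per pooled library and the mean and SD of 6 libraries as bars. Nr3c1 (11.1 RPKM) and Nr3c2 (4.51 RPKM) are highest in late quiet free-moving mice, where Crh has its lowest mean (5.26 RPKM).

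Unloading in late quiet mice went with more Crh and less Nr3c1. The 6 Crh values of unloaded mice (5.95 to 9.81 RPKM) lay mostly above those of free-moving mice (4.44 to 6.35), with an overlap of 1 unloaded library. Crh rose by 0.54 ± 0.17 (log2 of RPKM + 0.5, SE; 1.45-fold; limma with Benjamini-Hochberg adjustment, adjusted p = 0.032) and was higher at 6 of 6 title numbers. Nr3c1, at 7.77 against 11.1 RPKM with no overlap, fell by 0.49 ± 0.15 (1.41-fold, adjusted p = 0.023) and was lower at 6 of 6 numbers. These 2 of 7 genes stand against 12.8% of all tested genes called in this comparison. Nr3c2 had the same direction at 6 of 6 numbers and no overlap (3.59 to 3.86 against 4.31 to 4.65 RPKM). Its difference of −0.24 ± 0.14 did not pass in the fit with the spread of all 48 libraries (adjusted p = 0.28), while it passed at −0.25 ± 0.09 after each library was centred on its median (adjusted p = 0.049). Crhbp (−0.08 ± 0.18), Crhr1 (0.16 ± 0.15), Crhr2 (0.03 ± 0.12) and Hsd11b1 (−0.15 ± 0.16) did not pass. Both calls were lost when title number 5, 13 or 17 was left out, and that of Nr3c1 without number 21. With the mitochondrial share as covariate both passed, Crh at 0.59 ± 0.16 (adjusted p = 0.0052) and Nr3c1 at −0.41 ± 0.10 (adjusted p = 0.0036).

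Among other genes of the axis, Avp, the vasopressin gene co-expressed by many Crh neurons under stress, rose by 0.82 beside Crh (adjusted p = 0.022), as the only gene called of 12 paraventricular partners. Of 18 genes that control Crh transcription or cAMP signalling, Crtc2 rose by 0.48 and Sik2 fell by 0.76 (adjusted p = 0.0022 and 0.0021). These encode a coactivator of CREB and a kinase that holds such coactivators in the cytoplasm. Their part in the rise of Crh was not tested. Of 20 corticosteroid-induced genes tested, Mt1 rose (0.46, adjusted p = 0.022) and Klf9 fell (−0.53, adjusted p = 0.047). The median of that list was 0.01, beside 0.02 over all genes. Over all genes 12.8% were called in this comparison, and nothing is read as particular to these lists. Of 7 astrocyte markers, 2 were called lower beside Nr3c1 and 5 were not called, and their summed level was 291 to 343 RPKM in unloaded against 376 to 416 RPKM in free-moving mice. Of 7 endothelial markers, 3 were called higher (sums of 102.5 to 136.7 against 67.7 to 102 RPKM). Their part in the results for Crh and Nr3c1 was not tested. Striatal markers, whose sums were 40.1 to 135 against 39.2 to 98.2 RPKM, had 0 of 7 genes called in limma at an adjusted p below 0.05 and a median difference of 0.38.

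In noise at low pressure no unloading difference passed for the 7 genes. The limma fit called 0 of 7, 1 of them with an unadjusted p below 0.05, and 0.0146% of all genes (2 genes, with 855 at an unadjusted p below 0.05). Crh was 7.49 ± 1.40 RPKM in unloaded and 6.64 ± 1.11 RPKM in free-moving mice, a difference of 0.16 ± 0.17. Nr3c1 was 4.54 ± 0.985 against 5.41 ± 1.62 RPKM (−0.21 ± 0.15). The lowest unadjusted p was that of Crhr2, at 1.69 ± 0.289 against 2.13 ± 0.313 RPKM (−0.27 ± 0.12, adjusted p = 0.77). It was lower at 6 of 6 title numbers and overlapped. The difference between the unloading effects in noise and in quiet, tested as an interaction, was −0.38 ± 0.24 for Crh (adjusted p = 0.42) and 0.28 ± 0.21 for Nr3c1 (adjusted p = 0.52). It was called for 0 of 7 genes in limma, also at an unadjusted p below 0.05, and for 4.38% of all genes. So unloading was not shown to act differently on these genes in noise and in quiet.

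Noise with low pressure went with lower Nr3c1, Nr3c2 and Hsd11b1 in free-moving mice. Nr3c1 was 5.41 ± 1.62 RPKM in noise (lowest 4.03, median 4.80, highest 8.20) against 11.1 ± 0.826 RPKM in quiet, and fell by 1.02 ± 0.15 (2.02-fold, adjusted p = 5.3e-07). Nr3c2 was 2.91 ± 0.388 RPKM (2.29, 2.89 and 3.38) against 4.51 ± 0.117 RPKM and fell by 0.56 ± 0.14 (adjusted p = 0.00092). For both receptors all 6 noise libraries lay below all 6 quiet ones. Hsd11b1, at 3.63 ± 0.826 (2.44, 3.77 and 4.60) against 5.61 ± 1.47 RPKM, fell by 0.56 ± 0.16 (adjusted p = 0.0032) with overlapping ranges and the same sign at 6 of 6 numbers. These are 3 of 7 genes, all lower, where 57.6% of all genes were called and the median gene was lower by 0.15. Less that median, the differences were −0.86 for Nr3c1, −0.41 for Nr3c2 and −0.41 for Hsd11b1. Crh (0.31 ± 0.17, adjusted p = 0.12), Crhr1 (0.24 ± 0.15, 0.16) and Crhr2 (0.24 ± 0.12, 0.093) were not called as deposited. After centring on the median they were higher, with differences of 0.46 ± 0.16, 0.40 ± 0.15 and 0.40 ± 0.11 (adjusted p = 0.011, 0.021 and 0.0025), so that 3 genes were called higher and 3 lower. Over all genes the centred fit called 8981 of 13685, 50.3% of them higher. With the mitochondrial share as covariate Nr3c1 (−0.62 ± 0.12, adjusted p = 6.2e-05), Crh (0.54 ± 0.18) and Crhr2 (0.41 ± 0.13) passed. Nr3c2 (−0.23 ± 0.12) and Hsd11b1 (−0.31 ± 0.17) did not pass in that fit. The shares of the series compared did not overlap (15.1 to 38.8% in noise, 8.95 to 13.5% in quiet). The covariate fit therefore rests on a slope pooled over all series and does not compare them at equal shares.

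In unloaded mice the same 3 genes were lower in noise, together with Crhbp. Nr3c1 fell by 0.73 ± 0.15 (4.54 ± 0.985 against 7.77 ± 0.645 RPKM, 1.66-fold, adjusted p = 0.0024), with no overlap between the series. Nr3c2, with a lowest library of 1.41, a median of 2.66 and a highest of 3.25 RPKM in noise, fell by 0.54 ± 0.14 (adjusted p = 0.0039), also with no overlap. Hsd11b1 fell by 0.56 ± 0.16 (3.17 ± 0.326 against 5.03 ± 1.25 RPKM, adjusted p = 0.0059). Crhbp fell by 0.46 ± 0.18 (3.81 ± 1.43 against 5.23 ± 0.960 RPKM, adjusted p = 0.034), with lower values at 5 of 6 numbers. The share of all genes called was 52.3% and the median gene was lower by 0.28. Less that median, Nr3c1 differed by −0.45, Nr3c2 by −0.26, Hsd11b1 by −0.28 and Crhbp by −0.18. Centred on the median, Nr3c1 and Nr3c2 passed (adjusted p = 0.0015 and 0.025) and Hsd11b1 and Crhbp did not (0.12 and 0.28). Over all genes the centred fit called 5719 of 13685, 52.1% of them higher. With the mitochondrial share as covariate none of the 7 passed in limma, and 0 of 13685 genes did. Nr3c1 was then at −0.37 ± 0.12 (adjusted p = 0.15). Without title number 13, 1 of the 7 (Nr3c1) was called. Without number 9 or 17 the call of Crhbp was lost.

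In free-moving mice no noise library had a mitochondrial share as low as the quiet ones, which ran up to 13.5%. Library 5 of the noise free-moving series came nearest (15.1%) and is not matched in share. It held 8.20 RPKM of Nr3c1 and 3.38 RPKM of Nr3c2, below every quiet free-moving library. In unloaded mice few noise libraries had a share as low as the quiet ones, which ran up to 16.6%. Libraries 5 and 21 of the noise unloaded series (10.5% and 16.0%) held 5.54 and 5.71 RPKM of Nr3c1, below every quiet unloaded library, and 3.25 and 3.09 RPKM of Nr3c2, likewise below. The other genes called lower in noise lay within the quiet ranges in these libraries. Hsd11b1 was 4.60 RPKM in the free-moving library (quiet 3.78 to 7.80). In the unloaded libraries it was 3.59 and 3.39 RPKM (quiet 3.07 to 6.05), and Crhbp was 5.26 and 5.84 RPKM (quiet 4.30 to 6.84). Marker sums moved in these comparisons too. Neuron markers (7 genes) were 636 to 1036 RPKM in noise against 969 to 1231 in quiet free-moving mice, with 6 of 7 lower, and 7 of 7 lower in unloaded mice. Thalamus markers were 37.5 to 62.7 against 54.8 to 173 RPKM in free-moving mice, with 5 of 7 lower, and 6 of 7 lower in unloaded mice. Of 7 astrocyte markers, 6 were lower and 1 higher in free-moving and 5 lower and 1 higher in unloaded mice. All 13 mitochondrial mRNAs were higher in both comparisons. Which part these had in the falls of Nr3c1, Nr3c2 and Hsd11b1 was not tested.

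The other lists of the axis are given beside the background of 57.6% (free-moving) and 52.3% (unloaded) of all genes called, and nothing is read as particular to them. Of 7 other nuclear receptors tested, 5 were lower in noise in free-moving and 6 in unloaded mice, with none higher. Their medians were −0.72 and −0.47, beside −0.15 and −0.28 over all genes. Esrrg (−1.52) and Pgr (−0.88, the progesterone receptor) were among those that fell in free-moving mice. Of 22 receptor chaperones and coregulators, 10 were lower and 2 higher in free-moving and 13 lower and 0 higher in unloaded mice. The coactivator genes Ncoa1 (−1.22) and Ncoa2 (−0.998) and the corepressor gene Ncor1 (−0.74) fell in free-moving mice. Of 20 corticosteroid-induced genes, 9 and 6 were lower and 2 and 2 higher, with Klf9 at −1.14 and −0.67. Of 12 paraventricular partners of Crh, 4 were higher and 2 lower in each of the comparisons, and of 8 stress-axis hormones and receptors 2 were higher and 2 lower in free-moving and 1 higher and 2 lower in unloaded mice. Among the partners, Avp rose by 1.86 and 1.68 and Oxt by 1.40 and 1.10 in free-moving and unloaded mice, while Crh was not called (0.31 and −0.07). Pomc, the precursor of the corticotropin that Crh releases from the pituitary and of hypothalamic melanocortins, rose by 1.05 in free-moving mice (adjusted p = 0.0069).

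**Figure D2:**
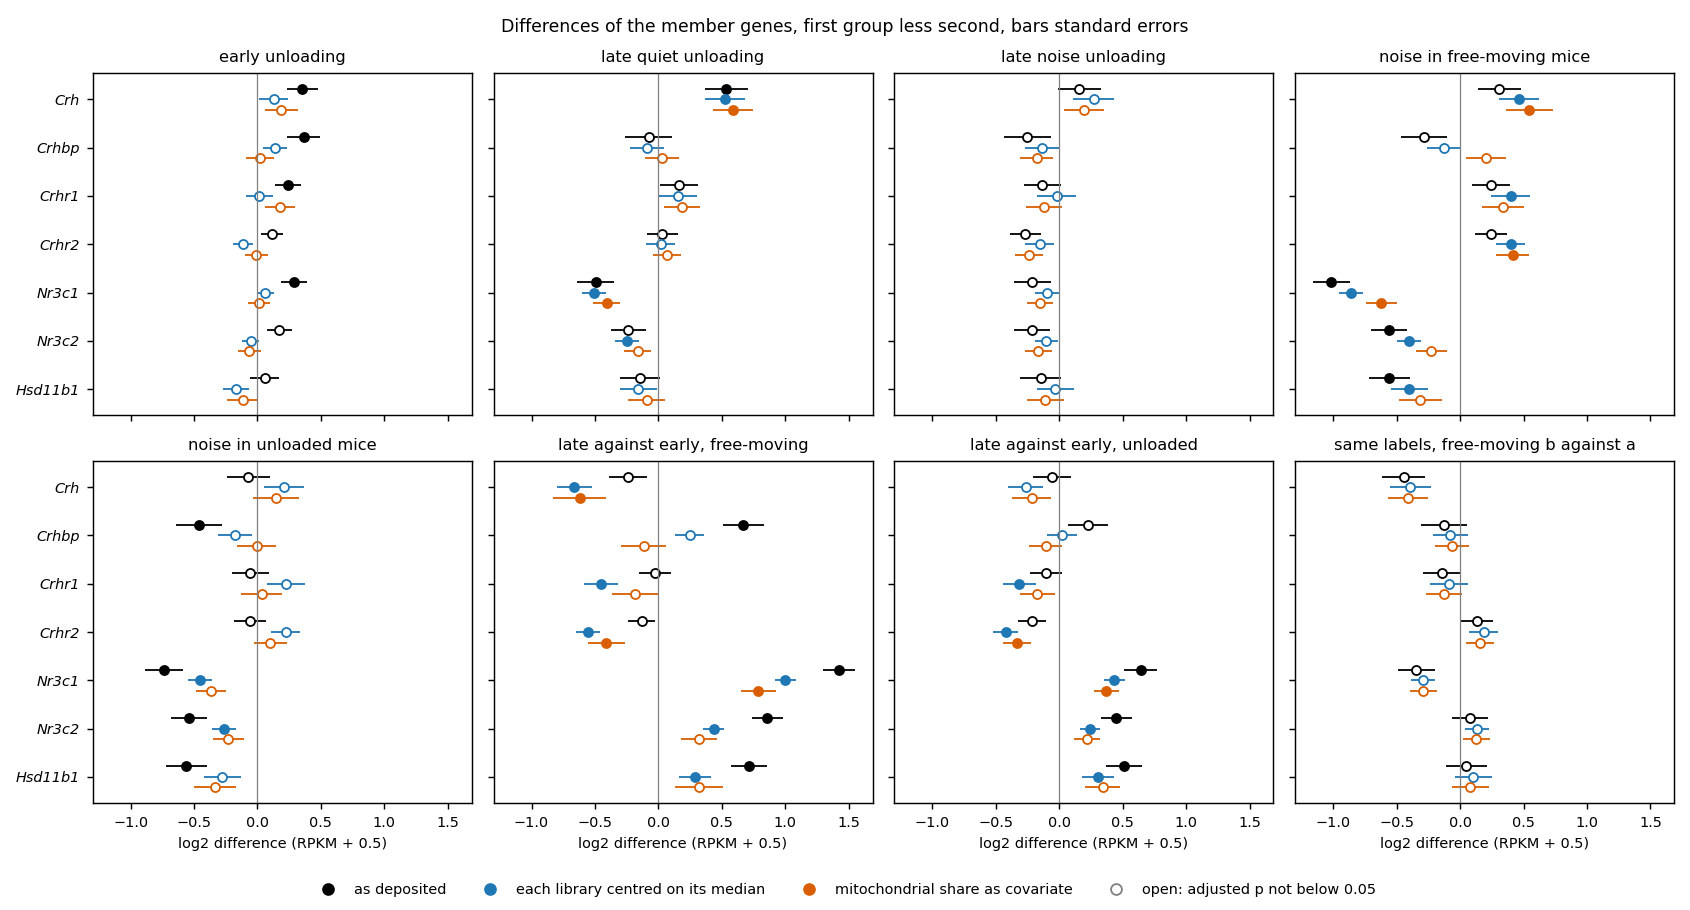
Differences on log2(RPKM + 0.5) (horizontal axes, bars standard errors) of the 7 genes in 8 comparisons, as deposited, after median centring and with the mitochondrial share as covariate. Filled points have an adjusted p below 0.05. Nr3c1 in free-moving mice in noise is filled under all 3 (−1.02, −0.86 and −0.62), while the early unloading differences are filled only as deposited.

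Late quiet free-moving mice had more Nr3c1, Nr3c2, Hsd11b1 and Crhbp than early ones. In all comparisons of late with early, the late side is the quiet series only. In these mice Nr3c1 was 11.1 ± 0.826 RPKM late (n = 6) and 3.97 ± 1.32 RPKM early (n = 12, lowest 3.00, highest 7.09), and rose by 1.42 ± 0.13 (2.69-fold, adjusted p = 3.4e-12). Nr3c2 rose by 0.86 ± 0.12 (4.51 ± 0.117 against 2.33 ± 0.659 RPKM, adjusted p = 5e-08). Neither receptor overlapped between the late quiet and the early free-moving libraries. The late noise free-moving series, not part of this comparison, did overlap the early ones (Nr3c1 4.03 to 8.20, Nr3c2 2.29 to 3.38 RPKM). Hsd11b1 rose by 0.71 ± 0.14 and Crhbp by 0.67 ± 0.16 (adjusted p = 1.4e-05 and 0.00022), both with overlap. Crh was at −0.24 ± 0.15 (5.26 against 6.54 RPKM, adjusted p = 0.14). These 4 of 7 genes stand against 78.5% of all genes called, and the median gene was higher by 0.43. Less that median the values were 0.998 for Nr3c1, 0.43 for Nr3c2, 0.29 for Hsd11b1 and 0.24 for Crhbp, and below 0 for Crh (−0.67), Crhr1 (−0.45) and Crhr2 (−0.56). Centred on the median, Nr3c1, Nr3c2 and Hsd11b1 were called higher and Crh, Crhr1 and Crhr2 lower (adjusted p = 4.7e-05, 0.0022 and 3.5e-06). Over all genes the centred fit called 10644 of 13685, 50.2% of them higher. With the mitochondrial share as covariate, Nr3c1 was called higher (0.79 ± 0.14) and Crh (−0.62 ± 0.21) and Crhr2 (−0.41 ± 0.15) lower, while Nr3c2 (0.32 ± 0.14) and Hsd11b1 (0.32 ± 0.19) were not called and Crhbp, at −0.12 ± 0.17, had the opposite sign.

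In unloaded mice Nr3c1, Nr3c2, Hsd11b1 and Crhbp had smaller period differences, and the interaction of unloading with period was called for Nr3c1 only. Nr3c1 rose by 0.64 ± 0.13 (7.77 ± 0.645 against 4.93 ± 1.34 RPKM, adjusted p = 0.00060), Nr3c2 by 0.45 ± 0.12 (adjusted p = 0.0040) and Hsd11b1 by 0.51 ± 0.14 (adjusted p = 0.0040). That is 3 of 7 genes, with 47.3% of all genes called and a median of 0.21. Less that median they were 0.43, 0.24 and 0.30. Centring on the median added Crhr1 (−0.32 ± 0.13) and Crhr2 (−0.42 ± 0.10) as lower, where 6508 of 13685 genes were called, 49.8% of them higher. With the covariate, Nr3c1 (0.37 ± 0.10) and Crhr2 (−0.33 ± 0.11) were called and Nr3c2 (0.22 ± 0.10) and Hsd11b1 (0.34 ± 0.14) were not. Neuron markers were called higher in the late series for 7 of 7 (free-moving) and 5 of 7 genes (unloaded), and thalamus markers for 7 and 5 of 7. The 13 mitochondrial mRNAs were lower in both, with medians of −2.45 and −1.10. Their part in the rises was not tested. Nuclear receptors of the same list as above were higher late for 7 of 7 genes in free-moving and 5 of 7 in unloaded mice (medians 1.06 and 0.44), with Esrrg at 1.74 and 0.83. Of 20 corticosteroid-induced genes, 13 were higher and 3 lower in free-moving mice (median 0.44, beside 0.43 over all genes) and 4 higher and 3 lower in unloaded mice (0.15, beside 0.21). Of 12 paraventricular partners, 3 were higher and 5 lower in free-moving and 2 higher and 4 lower in unloaded mice, with Avp at −2.16 and −1.64 and Oxt at −1.67 and −1.11 among the lower. The late quiet free-moving series enters this comparison, the noise comparison and the late unloading comparison, so their values for a gene are not independent.

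Early unloading was called for 4 of the 7 genes as deposited, all higher, where 52.8% of all genes were called and 96.4% of those were higher. Crh rose by 0.35 ± 0.12 (8.38 ± 2.27 against 6.54 ± 2.27 RPKM, n = 12 each, adjusted p = 0.016, 6 of 6 numbers). Crhbp rose by 0.37 ± 0.13 (4.53 ± 1.39 against 3.36 ± 0.964 RPKM, adjusted p = 0.020, 6 of 6 numbers). Nr3c1 rose by 0.29 ± 0.10 (4.93 ± 1.34 against 3.97 ± 1.32 RPKM, adjusted p = 0.022) and Crhr1 by 0.24 ± 0.10 (6.28 ± 1.73 against 5.24 ± 1.39 RPKM, adjusted p = 0.048). All ranges overlapped. The median gene was higher by 0.23, and less that median Crh was 0.13, Crhbp 0.14, Nr3c1 0.06 and Crhr1 0.02. Centred on the median, 0 of 7 passed in limma, and with the mitochondrial share as covariate 0 of 7 (Crh 0.19 ± 0.13, adjusted p = 0.96). No gene of the 7 was called either without title number 9, 13 or 17, or when unloaded series b alone was set against either free-moving series. Without library 9 of early unloaded series a, 3 passed (Crh, Crhbp and Crhr1, not Nr3c1). Without library 1 of early free-moving series a, 3 passed (Crh, Crhbp and Nr3c1, not Crhr1).

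Of 20 corticosteroid-induced genes, 14 were higher and none lower with early unloading, among them Plin4 (1.01), Cdkn1a (0.81) and Fkbp5 (0.55). The list median was 0.33 beside 0.23 over all genes. Over all genes 52.8% were called, 96.4% of them higher, and nothing is read as particular to the lists given here. These list calls share the limits of the comparison, in which 7227 genes were called. Leaving out libraries gave 21 called genes without title number 9, 4100 without number 13 and 0 in limma without number 17. Centred on the median, 2827 were called, 50.9% of them higher, and 1 was called with the mitochondrial share as covariate. Of 8 stress-axis hormones and receptors tested, 4 rose and Pomc fell (−0.63, adjusted p = 0.025), and Ucn3, a ligand of the receptor encoded by Crhr2, rose by 0.38 (adjusted p = 0.0052). Neuron markers were higher for 6 of 7 genes and mitochondrial mRNAs lower for 12 of 13, and their part in these results was not tested.

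Series with the same labels were compared as well, to give the differences between series that the labels do not separate. Between free-moving series b and a, Crh was at −0.45 ± 0.17 (5.35 ± 1.03 against 7.73 ± 2.61 RPKM, adjusted p = 0.19), lower at 6 of 6 title numbers, and Nr3c1 at −0.34 ± 0.15 (adjusted p = 0.25). The limma test called 0 of 7, with 2 at an unadjusted p below 0.05, and 0.256% of all genes. Between unloaded series b and a, Crhbp was at −0.39 ± 0.18, Nr3c1 at −0.33 ± 0.15 and Nr3c2 at −0.31 ± 0.14 (adjusted p = 0.15, 0.14 and 0.14). Here 0 of 7 were called, with 3 at an unadjusted p below 0.05, and 0.833% of all genes (114). Without library 9 of unloaded series a, 0 of 7 had an unadjusted p below 0.05 in limma, and 5 genes in all were called. Without title number 1, Crhbp, Nr3c1 and Nr3c2 were called, where 5375 of all 13699 genes tested were called too. The Crh difference between series of 1 label (0.45) was larger in size than its early unloading difference (0.35).

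The unloading difference of Nr3c1 was called as unlike between the early and the late quiet series. It was 0.29 ± 0.10 in early and −0.49 ± 0.15 in late quiet mice, and the interaction was −0.78 ± 0.18 (adjusted p = 0.0030 in limma). Less the median gene, the early difference was 0.06. It was not called centred on the median or with the mitochondrial share as covariate. Each late posture is 1 series, so period cannot be told apart from series. Nr3c1 was the 1 of 7 genes called in the interaction, with 33.5% of all genes called and a median of −0.22. Nr3c1 also passed centred on the median (−0.57 ± 0.12, adjusted p = 0.00055) and with the covariate (−0.42 ± 0.14, adjusted p = 0.042), and with each title number left out. Nr3c2 was at −0.41 ± 0.17 (adjusted p = 0.061) and Crhbp at −0.44 ± 0.22 (0.12). The Crh interaction was 0.18 ± 0.21 (0.51), so its early and late unloading differences were not shown to differ. Of 20 corticosteroid-induced genes, 7 were called in the same interaction, all lower, among them Klf9 (−0.97) and Zbtb16 (−1.16).

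Ratios within a library do not depend on its total, and 27 were tested (3 ratios in 9 comparisons, two-sided, adjusted over the 27, title numbers ignored). Of these, 5 passed, and 0 passed in a test by sign flips within title numbers (all 5 at an adjusted exact p of 0.19), whose smallest p over 6 numbers is 0.031 before adjustment. The Nr3c2 to Nr3c1 ratio was lowest in late quiet free-moving mice, at 0.407 ± 0.0326 (lowest 0.355, median 0.418, highest 0.441). It was 0.486 ± 0.0441 in late quiet unloaded mice (0.428, 0.476 and 0.555) and 0.563 ± 0.122 in noise free-moving mice. On the log2 scale it was higher with late quiet unloading by 0.26 (exact permutation p = 0.0065, adjusted 0.047, 5 of 6 numbers) and with noise in free-moving mice by 0.44 (exact p = 0.0087, adjusted 0.047, 6 of 6). Late against early free-moving mice differed by −0.54 (exact permutation p = 0.0022, adjusted 0.029). The ratio also differed between the free-moving series of 1 label, 0.711 ± 0.146 in b and 0.498 ± 0.0334 in a (0.49, exact permutation p = 0.0087, adjusted 0.047). In each of these comparisons the difference in level was larger in size for Nr3c1 than for Nr3c2. Between the free-moving series of 1 label it was −0.34 for Nr3c1 and 0.08 for Nr3c2, and neither was called.

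Peptide and binding protein were in a ratio (Crh to Crhbp) of 0.978 ± 0.263 in late quiet free-moving mice (0.713, 0.879 and 1.39) and of 1.54 ± 0.348 to 2.51 ± 1.77 in the other 7 series. Late against early free-moving mice differed by −1.01 on the log2 scale (2.02-fold, exact permutation p = 0.0020, adjusted 0.029, 5 of 6 numbers). With late quiet unloading the ratio was higher by 0.66 at 6 of 6 numbers, and this did not pass (exact permutation p = 0.015, adjusted 0.068). With title number 5, 13, 17 or 21 left out, no ratio of the 27 passed, and without number 1 or 9, 2 did. The 9 Crhr1 to Crhr2 comparisons had exact or permutation p of 0.16 or more before adjustment. Crh to Nr3c1, given as a description, was 0.474 ± 0.0858 in late quiet free-moving mice (0.391 to 0.623) and 1.02 ± 0.183 in late quiet unloaded mice (0.783 to 1.25). In the other 6 series its means were 1.32 to 1.84.

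**Figure D3:**
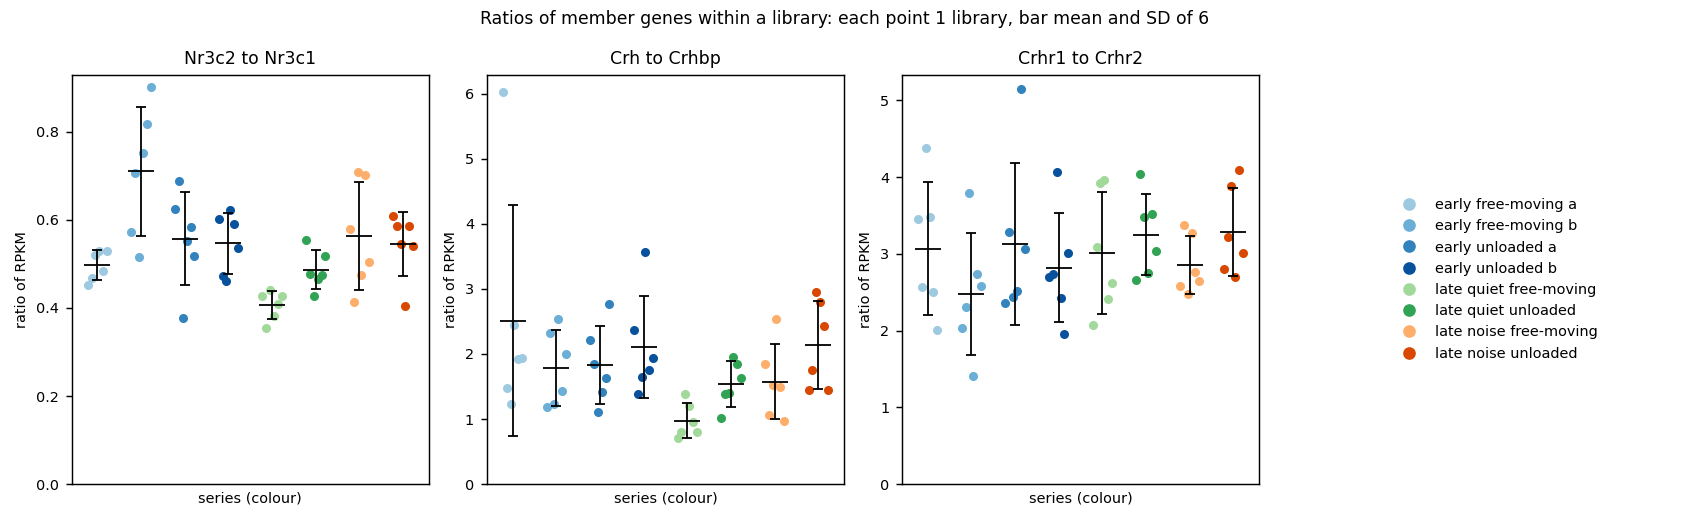
Ratios of RPKM within a library (vertical axes) for Nr3c2 to Nr3c1, Crh to Crhbp and Crhr1 to Crhr2, with 1 point per library and the mean and SD of 6 as bars. The late quiet free-moving series is lowest in the first and second panels (0.407 and 0.978), and the Crhr1 to Crhr2 means lie within 2.48 to 3.28.

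No test of the number in the library title passed for the 7 genes. The labels give it no unit, and it was read as an hour of the day only for a fit with a period of 24. As a factor of 6 levels it was called for 0 of 7 genes in limma, with Nr3c1 at an unadjusted p of 0.031 (adjusted p = 0.22), and for 0.877% of all genes. The Nr3c1 means over the 8 series were 5.02 at number 1 and 6.85 RPKM at number 5, and 5.55 to 6.02 at the others. For Crh they were 6.19 RPKM at 9 to 8.23 RPKM at 13, and for Hsd11b1 3.08 RPKM at 1 to 4.10 RPKM at 13. A daily sine course was called for 0 of 7 genes, none of them at an unadjusted p below 0.05, and for 1.76% of all genes. Its largest amplitudes were 0.11 for Hsd11b1 (adjusted p = 0.56) and 0.11 for Crhr2 (adjusted p = 0.42), and that of Crh was 0.05. Courses that differ between series were called for 0 of 7, again none at an unadjusted p below 0.05, and for 0% of all genes (1641 at an unadjusted p below 0.05). Within single series the fitted amplitudes reached 0.48 (Crhbp), with 6 points and 3 terms each. Of 20 corticosteroid-induced genes, 8 were called in the daily course, among them Plin4, Fkbp5 and Tsc22d3 (adjusted p = 6e-07, 8.1e-06 and 3.6e-05).

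**Figure D4:**
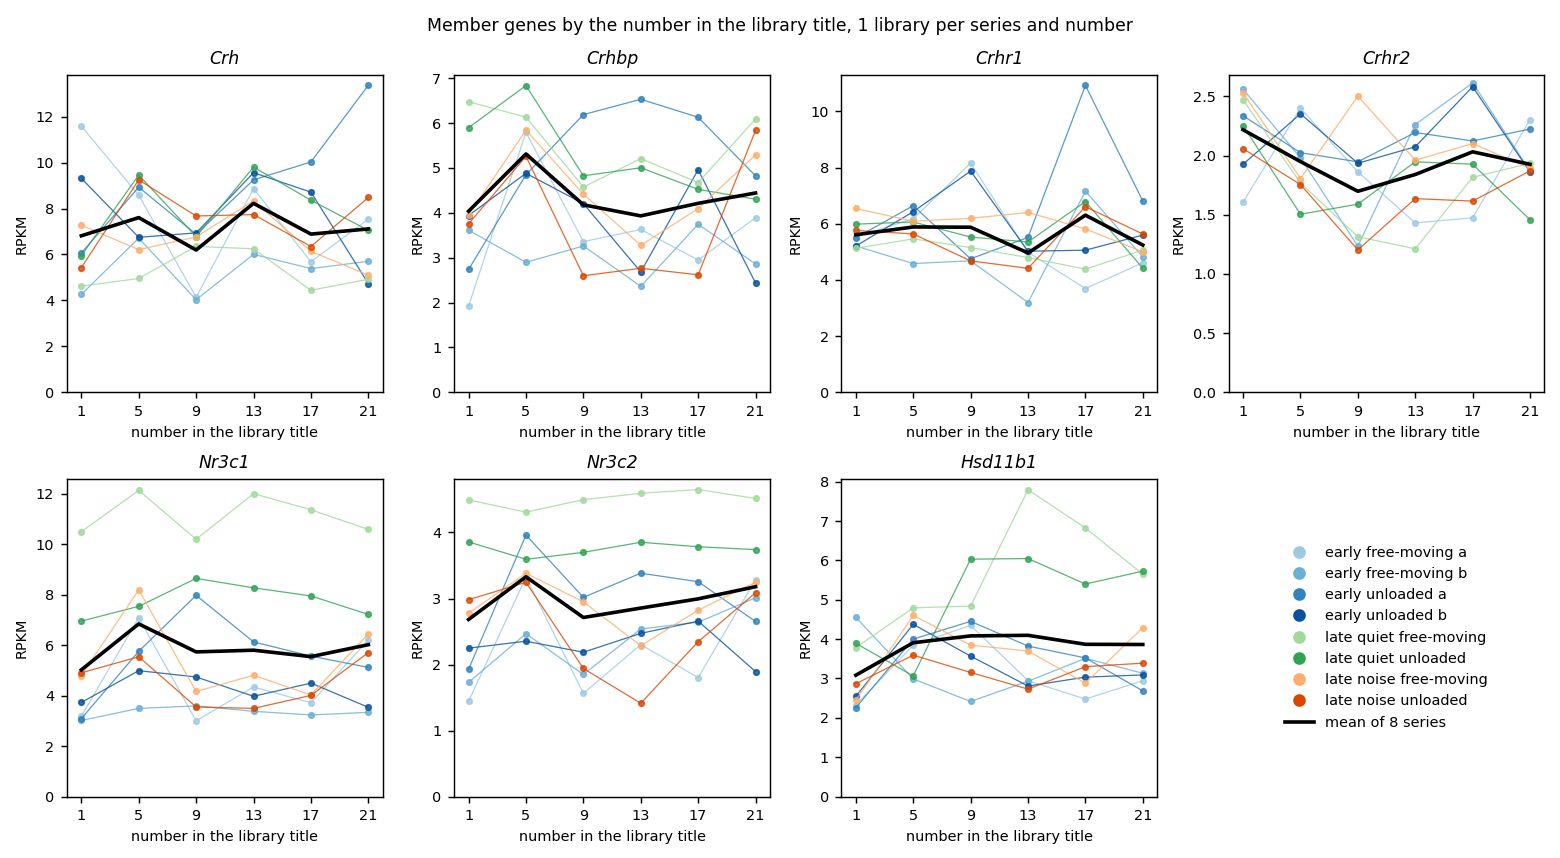
RPKM of the 7 genes (vertical axes) by the number in the library title (horizontal axes, no unit in the labels), with 1 line per series and the mean of 8 series in black. The late quiet free-moving series holds the highest Nr3c1 and Nr3c2 at all 6 numbers.

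The RPKM of a gene and the mitochondrial share are parts of 1 library total, and the correlation between them was below 0 for each of the 7 genes, as for most genes. Over 13672 tested nuclear genes the median r was −0.652, and 87.5% of genes had an r below 0. Within series (log2 odds of the share and log2 RPKM + 0.5, both less their series means, 48 libraries, 7 relations, labels permuted within series), Pearson's r was −0.75 for Nr3c1 and −0.74 for Crhbp (permutation p = 2e-05 and 1e-05, the latter the smallest that 100000 draws can give, both adjusted 7e-05). It was −0.68 for Nr3c2 (p = 0.00031, adjusted 0.00072 by permutation). Spearman's rho was −0.60, −0.68 and −0.59 for these 3 genes (permutation p = 0.00024, 1e-05 and 0.00048). Weaker values were found for Hsd11b1 (r −0.38, rho −0.32), Crh (−0.36, −0.24) and Crhr2 (−0.32, −0.34), with adjusted permutation p of 0.0073, 0.044 and 0.029 for r. The rank relation of Crh did not pass (permutation p = 0.13), and neither measure did for Crhr1 (r −0.17, rho −0.18, permutation p = 0.35 and 0.28). Without the 2 libraries farthest from the median share, r was −0.76 for Nr3c1, −0.77 for Crhbp, −0.67 for Nr3c2, −0.36 for Hsd11b1, −0.32 for Crh, −0.31 for Crhr2 and −0.10 for Crhr1. Against the other genes these values were not extreme: 35.6% of genes had an r as low as that of Nr3c1, 36.7% as that of Crhbp and 47.2% as that of Nr3c2. For Hsd11b1, Crh, Crhr2 and Crhr1, r was above the median gene, with 72.3%, 73.1%, 75.1% and 81.8% of genes as low or lower. Within single series of 6 the sign was not uniform: r for Nr3c1 ran from −0.93 to 0.86 and was above 0 in 2 of 8 series.

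**Figure D5:**
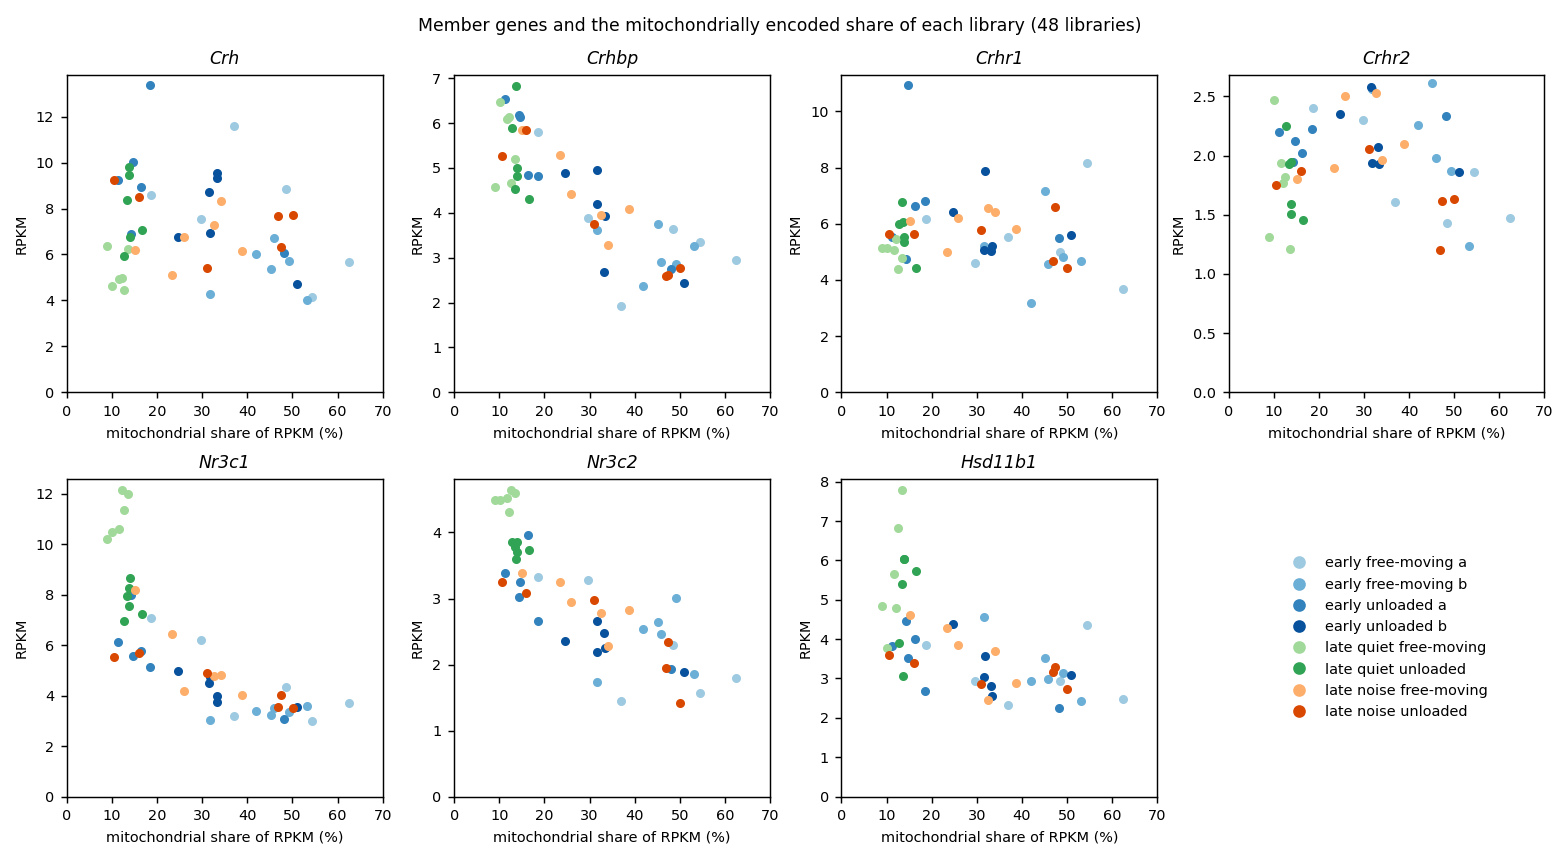
RPKM of the 7 genes (vertical axes) against the mitochondrially encoded share of RPKM (horizontal axes, percent) in 48 libraries, coloured by series. At shares up to 16.6% the late quiet free-moving libraries lie above all others for Nr3c1 (10.2 RPKM or more) and Nr3c2 (4.31 RPKM or more).

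As a description of shared patterns, the genes most like each member were sought over the 48 libraries, on log2 values less the median of each library, which share depth, series and dissection. Those nearest to Crh were Penk (r 0.82, a precursor of enkephalins), Dlx6 (0.81) and Tac1 (0.80, a tachykinin precursor). Striatal markers, whose sums ran from 31.2 to 236 RPKM over the libraries, were not set against Crh, and their part was not tested. For Nr3c1 they were Taok1 (0.95), Rab10 (0.95) and Cntn1 (0.95). For Crhr2 they were Marcksl1 (0.85), Nnat (0.85) and Cyb5r3 (0.84), and for Crhr1 Dao (0.80), Grin2c (0.77) and Shisa8 (0.77). Nr3c2 was nearest to Hlcs (0.74), Serinc5 (0.74) and Klf3 (0.72), Hsd11b1 to Armh4 (0.71), Vangl1 (0.68) and Lap3 (0.67), and Crhbp to Kdm2b (0.66), Mboat7 (0.65) and Morf4l2 (0.65). Among the 7 themselves, Nr3c1 and Nr3c2 had an r of 0.61 and Crhr1 and Crhr2 one of 0.59. Nr3c1 had −0.61 with Crh, −0.64 with Crhr1 and −0.73 with Crhr2. Crh and Crhbp had −0.33.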

How the data were processed

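RNA-seq was measured in 48 libraries of mouse hypothalamus, each from a pool of 3 mice. The authors deposited RPKM per gene in 1 table of 21558 genes, made with CASAVA 1.8 and HISAT per the submitters' processing notes. Which genome build and annotation lie behind the RPKM is not given in the sources used here. Positions therefore come from GENCODE M21 by symbol, and promoter windows from RefSeq. RPKM does not keep the read counts. Depth was recovered from low values, of which 62.3 to 68.4% per library were whole reads within 0.02 (4% by chance), so no count test was run. All columns of the table were used (0 left out).

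Genes with a mean of at least 0.5 RPKM (13685) were tested on log2(RPKM + 0.5), which understates changes of low genes, with limma 3.58.1 in R 4.3.3 (trended variance, terms for series and title number, 35 residual degrees of freedom, two-sided, Benjamini-Hochberg adjustment over all genes, threshold 0.05). A called gene has an adjusted p below 0.05. In all, 14 comparisons were made, 3 of them F tests on the title number. Ratios and shares were tested by exact or 100000-draw permutation in Python 3.11.15 (numpy 2.4.6, pandas 2.3.3, scipy 1.17.1). The fit was tested on simulated data. Alternatives were another pseudocount (0.1), no filter, quantile normalization, median centring, the mitochondrial share as covariate, only the series compared, the early series pair by pair, no term for title number, and leaving out libraries.

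The 7 genes and all gene lists were chosen with earlier results of these data known. All 7 genes are reported whatever their p. Of each pathway list, at most the 4 called genes of smallest p could be named, and of likeness the 3 nearest genes. Marker lists are given by counts and summed RPKM. Because p-values rest on pooled libraries, they measure the spread between pools.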

Additional observations from a re-analysis of the deposited data

Results flagged for a closer look

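Crhr1 was at 10.93 RPKM in library 17 of early unloaded series a, while the other 5 libraries of that series were at 4.75 to 6.81 RPKM. The gap to the nearest library exceeded 0.625 of the range of the series. It was 1 such library among 56 combinations of gene and series, fewer than chance gives at about 1 in 20 combinations.

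The unloading difference of Nr3c1 was above 0 in the early and below 0 in the late quiet period, and the interaction was −0.783 on the log2 scale (adjusted p = 0.0030 in limma). The late side is 1 series per posture, and the early series of 1 label themselves differed by −0.34 and −0.33 for Nr3c1 (not called). Library and series differences therefore cannot be told apart from period.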

How the results depend on the processing

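Counts are of the 7 genes called. For early unloading the 4 calls became 0 under quantile normalization, median centring or the mitochondrial covariate, 1 with only the series compared, and, by pair of series, 2 (unloaded a, free-moving a), 0 (unloaded b, free-moving a) and 0 (b, b). In noise, the 3 calls of free-moving mice became 6 under quantile normalization, centring or only the series compared, and the 4 of unloaded mice became 2, 2 and 0 under quantile normalization, centring and the covariate. Late against early in unloaded mice went from 3 to 5 when centred. The interaction with noise went from 0 to 1 under quantile normalization, and that with period from 1 to 2 under quantile normalization or only the series compared. Leaving out 1 title number gave 0 to 4 calls for early unloading, 0 to 2 for late quiet unloading, 1 to 4 for noise in unloaded mice, 0 to 3 between the unloaded series of 1 label, 1 to 2 for the interaction with period and 0 to 2 of 27 ratios (5 in full). Among results called in the fit as reported or in the alternative, signs reversed for Crhr1 (early unloading, −0.009 under quantile normalization), Nr3c1 (early unloading, −0.048 for unloaded b against free-moving a) and Crhbp (late against early free-moving, −0.117 with the covariate). Of 1183 values under alternatives, 63 more, called in neither fit, had the other sign. The causes were not tested. Another pseudocount changed no call.

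The share of called genes that were higher moved with centring: from 96.4% to 50.9% for early unloading, 73.5% to 45.4% for late quiet unloading, 36.8% to 50.3% and 12.9% to 52.1% for noise in free-moving and unloaded mice, 77.1% to 50.2% and 82.0% to 49.8% for late against early, from 66 of 600 called genes to 61.3% for the interaction with noise and 23.8% to 48.6% for that with period. Over all genes, early unloading called 7227 genes, 2827 when centred and 1 with the covariate. Late quiet unloading called 1745, 3547 and 4055.

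Samples share only a title number: deviations of the 168 pairs of 1 number had a median r of 0.080 (lowest −0.525), against −0.017 for 840 other pairs, and 16 of 48 libraries were nearest to a library of their own number. Without the replicate block (no term for number), 3 genes were called for early unloading, 2 for late quiet unloading, 0 for late noise unloading, 3 and 4 for noise, 4 and 3 for late against early, 0 and 0 between series of 1 label, and 0 and 1 for the interactions. With numbers as a replicate block, 0 ratios passed. The smallest p of that sign-flip test is 0.031 before adjustment over 27 ratios, so it could hardly pass any. Nothing is read from this outcome.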
